A study of Mus musculus with 14 samples.

Results

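The class I antigen processing genes described here are 10 mouse genes chosen by symbol: the immunoproteasome subunits Psmb8, Psmb9 and Psmb10, the proteasome activator subunits Psme1 and Psme2, the peptide loading genes Tap1, Tap2 and Tapbp, and the class I molecule genes B2m and H2-K1. Of the 13661 genes named on the array, 9 of these 10 were found, with 16 of the 33600 probes. Psme2 had no named probe and was not analysed here. The RNA came from cultured astrocytes of newborn mice. The groups were Cx43 null astrocytes (4 samples), wild-type astrocytes treated with siRNA against Cx43 (4 samples) and wild-type astrocytes (replicates 3, 4 and 6 of 6). Cx43, encoded by Gja1, is the main gap junction protein of astrocytes, and the series asks how losing it from birth and lowering it acutely compare.

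The titles call the cells cortical, whereas the labels' protocol describes minced whole brain, with the brain of each littermate cultured on its own and the cells used at first passage. No label names the null allele, the strain or the age in days. The siRNA cultures were transfected with 20 ug of siRNA construct, and the labels of the wild-type samples name no transfection. The siRNA was on the cells for 36 h according to the design text, and protein was taken at 48 h according to the protocol. Each sample gave 20 ug of total RNA, labelled with Cy3 for odd and Cy5 for even replicate numbers. The design text speaks of 4 independent cultures a group, but no label says which sample came from which culture. The p-values therefore reflect the spread among these samples alone, and that spread may be technical.

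Class I molecules show short peptides from inside the cell to cytotoxic T cells. The proteasome cuts proteins into such peptides, and in cells exposed to interferon its catalytic beta subunits are replaced by Psmb8, Psmb9 and Psmb10, which makes the immunoproteasome. The PA28 cap, built of Psme1 and Psme2, opens the proteasome's end. Tap1 and Tap2 form the transporter that moves peptides into the endoplasmic reticulum, Tapbp (tapasin) holds the empty class I molecule beside it, and the molecule itself is a heavy chain such as H2-K1 bound to beta-2 microglobulin, the product of B2m. Resting cells of the brain parenchyma carry little class I, and interferons are the classical inducers of the whole set.

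The windows from 250 bases before to 50 bases after the annotated start are shown for 5 of these genes, because interferon and NF-kB response elements near the start are the textbook route of their induction. They were taken from RefSeq (GRCm38.p6), which held windows for 9 of the 10 genes and none for Tap2. The windows are H2-K1 at chr17:34000298-34000597 on the minus strand, B2m at chr2:122147437-122147736 on the plus strand, Tap1 at chr17:34187306-34187605 on the plus strand, Psmb8 at chr17:34197945-34198244 on the plus strand and Psme1 at chr14:55578244-55578543 on the plus strand. Capitals mark every match, on either strand, to GAAA and GAAA with NN between them (core of the interferon-stimulated response element), GAANNGAAA (a pair of IRF half-sites), TTCNNNGAA (the gamma-activated sequence) or the NF-kB consensus.
H2-K1: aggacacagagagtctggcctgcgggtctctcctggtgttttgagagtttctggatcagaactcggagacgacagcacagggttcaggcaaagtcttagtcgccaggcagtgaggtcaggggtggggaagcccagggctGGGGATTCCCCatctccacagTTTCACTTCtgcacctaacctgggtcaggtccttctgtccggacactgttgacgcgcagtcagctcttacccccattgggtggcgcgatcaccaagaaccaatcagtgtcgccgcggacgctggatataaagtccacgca
B2m: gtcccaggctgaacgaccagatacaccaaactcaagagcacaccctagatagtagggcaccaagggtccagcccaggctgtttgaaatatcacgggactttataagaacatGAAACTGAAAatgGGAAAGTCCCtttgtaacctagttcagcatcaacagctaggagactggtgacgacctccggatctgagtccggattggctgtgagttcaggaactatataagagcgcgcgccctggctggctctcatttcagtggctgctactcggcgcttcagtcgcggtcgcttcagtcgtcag
Tap1: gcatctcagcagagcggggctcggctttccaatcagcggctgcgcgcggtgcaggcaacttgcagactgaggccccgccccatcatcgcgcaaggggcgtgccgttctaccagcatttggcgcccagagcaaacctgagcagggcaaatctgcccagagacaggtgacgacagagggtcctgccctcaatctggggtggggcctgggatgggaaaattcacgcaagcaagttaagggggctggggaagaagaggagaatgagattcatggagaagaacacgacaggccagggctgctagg
Psmb8: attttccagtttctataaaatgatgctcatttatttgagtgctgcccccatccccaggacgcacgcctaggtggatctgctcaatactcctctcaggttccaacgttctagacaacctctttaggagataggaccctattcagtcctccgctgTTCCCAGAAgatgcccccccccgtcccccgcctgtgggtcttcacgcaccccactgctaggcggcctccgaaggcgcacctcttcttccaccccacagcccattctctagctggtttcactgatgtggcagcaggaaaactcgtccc
Psme1: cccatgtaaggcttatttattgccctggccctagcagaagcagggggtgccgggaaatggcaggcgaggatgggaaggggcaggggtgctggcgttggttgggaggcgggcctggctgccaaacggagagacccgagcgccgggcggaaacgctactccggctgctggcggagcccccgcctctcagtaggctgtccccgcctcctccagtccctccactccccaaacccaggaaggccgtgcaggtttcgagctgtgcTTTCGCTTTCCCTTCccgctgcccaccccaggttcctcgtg

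Counted from the annotated start, the H2-K1 window held the NF-kB consensus from position -111, with an overlapping match from -110, and the IRF half-site pair from position -90. B2m held the response element core from position -139 and the NF-kB consensus from position -126. Psme1 held the response element core from position 10 and an overlapping IRF half-site pair from position 16, and Psmb8 held the gamma-activated sequence from position -97. No letters of these 4 motifs stood in the windows of Tap1, Psmb9, Psmb10, Psme2 or Tapbp. Among all 32851 windows of this length, 3.44% held the response element core, 7.52% GAANNGAAA, 8.30% TTCNNNGAA and 8.46% the NF-kB consensus. The windows of Psmb9 and Tap1 share 275 bases on opposite strands, so both genes start from the same stretch of DNA, and the order of genes there is Psmb9, Tap1, Psmb8, Tap2.

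Values are log2 of the spot signal over the median of its print block of 700 probes, so 0 is the block's typical probe, and levels of different probes cannot be compared. Each column held values for 53.1% to 79.8% of the probes, and no label says why the others are empty. Wild-type replicates 1, 2 and 5 were left out of the tests because their columns did not follow the rest (r of 0.37, 0.38 and -0.02 with the mean of the other samples, against 0.894 to 0.948 in the 11 used). The null and siRNA samples fall into 2 replicate sets: across probes, replicates 1 and 2 of a group correlated at 0.988 to 0.991 and replicates 3 and 4 at 0.927 to 0.967, but across the sets only at 0.753 to 0.801. The set was therefore a term of the limma fit, beside dye. Consecutive replicates of opposite dye may share an array. Gja1, the targeted gene, read -1.17, -1.06, 2.82 and 3.03 in null replicates 1 to 4, against 1.93, 2.14, 5.47 and 5.70 in siRNA replicates 1 to 4 and 6.08, 7.53 and 4.82 in wild-type replicates 3, 4 and 6. Null was lower than wild type by limma (log2 change -3.31 ± 0.58 SE, adjusted p = 0.0401), a call that 3 of 11 fits with 1 sample left out kept and that was lost with consecutive replicates as a random block (adjusted p = 0.297). Between siRNA and wild type Gja1 was not called (-0.41 ± 0.58 SE, limma adjusted p = 0.732): siRNA replicates 1 and 2 lay below all wild-type samples, and siRNA replicates 3 and 4 within their range. Null lay below siRNA (-2.90 ± 0.48 SE, limma adjusted p = 0.00711; 0.0637 with the random block). No label says whether this probe falls inside the deletion. The labelled cell type was checked with astrocyte markers: the mean over 12 of their probes ran from 2.32 to 3.32 in null, 1.18 to 2.83 in siRNA and 2.59 to 3.55 in wild-type samples, while the probe of the defining marker Gfap had no value in any of the 11. Gja1 itself is among these 12 probes, so its reduction in null enters the null means, and no mean without it was computed.

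In siRNA-treated astrocytes, 5 of the 9 genes were higher than in wild type: the heavy chain gene H2-K1 at 2 of its 3 probes, the transporter genes Tap1 (2 of 3 probes) and Tap2, the tapasin gene Tapbp and the PA28 gene Psme1 (1 of 2 probes). In all, limma called 7 of the 14 probes tested higher (5 of 9 genes) and 0 lower, while 5.43% of all 20342 probes tested were called higher and 7.38% in either direction. At an unadjusted p under 0.05, 11 of the 14 passed, against 23.4% of all. Leaving out wild-type replicate 4 brought the 7 to 3, leaving out siRNA replicate 4 also to 3, and leaving out siRNA replicate 3 to 4. In these fits 3.66%, 1.26% and 2.1% of all probes were called in either direction. The median log2 change of the 14 probes was 2.08, against 0.13 over all probes, and 13 of 14 changes were positive, against 56.6% of all. With consecutive replicates as a random block, 3 remained called (Tap1 at 2 probes and H2-K1 at 1), where 0.821% of all probes were called higher. B2m, the partner of the class I heavy chains, and the catalytic subunits Psmb8, Psmb9 and Psmb10 were not called.

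H2-K1 probe 2290 read 2.97, 3.21, 3.13 and 3.51 in null replicates 1 to 4, 5.58, 6.41, 6.42 and 7.35 in siRNA replicates 1 to 4, and 1.48, 2.70 and 2.74 in wild-type replicates 3, 4 and 6. Every siRNA sample lay above every null and every wild-type sample, and every null sample lay above every wild-type sample. The siRNA change was 4.54 ± 0.39 (SE, log2; 23.3-fold; limma adjusted p = 0.000168). It was 4.51 with consecutive replicates as a random block (limma adjusted p = 0.00286), and it kept its call in all 11 fits with 1 sample left out. The spot of siRNA replicate 4 stood at a signal of 65037, close to the highest in its column (65434), so its level may be a lower bound.

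Probe 28862 of H2-K1 read 1.27, 1.50, 2.64 and 1.48 in null replicates 1 to 4, 3.63 and 4.19 in siRNA replicates 1 and 2, and 1.84, 1.64 and 1.20 in the wild-type samples. The siRNA samples 3 and 4 had no value there, so that change (2.99 ± 0.72 SE, limma adjusted p = 0.0356) sets siRNA replicates 1 and 2 against wild-type samples of the other set through the set term alone, and 2 of 9 fits with 1 sample left out kept the call. Probe 23262 read 5.47, 5.87, 4.69 and 4.39 in null replicates 1 to 4, 6.35, 7.35, 5.71 and 7.15 in siRNA replicates 1 to 4, and 5.16, 4.98 and 5.22 in the wild-type samples. All siRNA samples lay above all wild-type samples at this probe too, but the change of 1.21 ± 0.44 (SE) did not pass (limma adjusted p = 0.121). The signal of siRNA replicate 4 there was 61427, near the highest in its column (65434), so its level may be a lower bound. Heavy chain genes of the class I family are close copies of one another, and the array's oligonucleotide sequences were not used here, so how far another heavy chain's RNA adds to these spots was not tested.

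B2m read 7.13, 7.54, 6.08 and 7.18 in null replicates 1 to 4, 7.97, 8.65 and 5.55 in siRNA replicates 1 to 3, and 7.12, 7.90 and 7.34 in the wild-type samples (probe 16060). The groups overlapped, siRNA replicate 3 lay lowest of all, and siRNA replicate 4 had no value. The siRNA change was -0.70 ± 0.55 (SE, log2; 95% interval -1.92 to 0.51; limma adjusted p = 0.498). Recovered signals near the top of their column occurred in every group, so these levels may be lower bounds: 59976 of 65246 in null replicate 1, 58884 of 63684 and 60411 of 65286 in siRNA replicates 1 and 2, and 56664 of 65473 in wild-type replicate 6. Without siRNA replicate 3 the change was 0.26, resting on the set term alone.

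Tap1 has 3 probes. Probe 181 read -0.70, -0.72, 0.08 and 0.77 in null replicates 1 to 4, 1.15, 1.90, 3.73 and 4.01 in siRNA replicates 1 to 4, and -1.31, -0.31 and 0.07 in wild-type replicates 3, 4 and 6. All siRNA samples were above all others, and null and wild-type samples overlapped. The siRNA change was 4.19 ± 0.44 (SE, log2; 18.2-fold; limma adjusted p = 0.000465; 0.00582 with the random block). Probe 5781 read -1.45, -1.01, -2.31 and -0.35 in null, 0.50, 1.54, 2.39 and 2.34 in siRNA, and -1.21 and -2.59 in wild-type replicates 4 and 6. Here too the siRNA samples stood clear of the rest, and the change was 4.33 ± 0.67 (SE, log2; 20.1-fold; limma adjusted p = 0.00495; 0.0275 with the random block). Both probes kept their call in every fit with 1 sample left out that tested them (11 of 11 and 9 of 9).

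The remaining Tap1 probe, 11381, read 2.81, 2.86, 0.53 and 1.57 in null, 3.18, 3.37, 3.80 and 4.35 in siRNA, and 1.73, 1.74 and 2.40 in wild-type samples. Its siRNA samples also lay above all others, but its change of 1.54 ± 0.58 (SE) did not pass (limma adjusted p = 0.132). Without siRNA replicates 3 and 4, a setting chosen after seeing the data, the change was -0.40. That value rests on the set term alone, and siRNA replicates 1 and 2 still read above every wild-type sample. Across samples the Tap1 probes followed one another with r = 0.897 (181 and 5781, 10 samples), 0.785 (5781 and 11381, 10 samples) and 0.704 (181 and 11381, 11 samples). The points share groups and replicate sets, so these values only describe the probes. For comparison, the H2-K1 probes correlated at 0.729 to 0.846 (9 to 11 samples) and the Psme1 probes at 0.609 (11 samples).

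Tap2, the partner of Tap1 in the transporter, split by replicate set. Probe 17718 read -0.09, -0.02, 2.16 and 2.03 in null replicates 1 to 4, 0.40, 0.77, 4.60 and 5.47 in siRNA replicates 1 to 4, and 2.21, 1.39 and 1.79 in the wild-type samples. The siRNA samples of the first set lay below wild type and those of the other set above it, while every null and siRNA sample was lower in replicates 1 and 2 than in 3 and 4. With the set in the fit, the siRNA change was 2.67 ± 0.56 (SE, log2; 6.38-fold; limma adjusted p = 0.0162; 0.0858 with the random block). The call was lost without wild-type replicate 4 or siRNA replicate 3 or 4 (adjusted p up to 0.141).

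Tapbp, the bridge between transporter and class I molecule, read 2.28, 2.62, 3.90 and 3.89 in null replicates 1 to 4, 2.86, 3.52, 5.56 and 6.47 in siRNA replicates 1 to 4, and 4.46, 3.74 and 3.56 in the wild-type samples (probe 17634). As for Tap2, the siRNA samples straddled the wild-type ones. The change of 1.77 ± 0.48 (SE, log2; 3.42-fold) passed narrowly (limma adjusted p = 0.0454), did not pass with the replicate block (adjusted p = 0.0743, where 6 members and 9.89% of all probes were called) or the random block (adjusted p = 0.191), and was kept in 3 of 11 fits with 1 sample left out.

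For the catalytic subunits the siRNA samples stood highest as well, but no probe passed against wild type. Psmb8 (probe 12118) read 3.44, 3.73, -0.14 and 0.25 in null replicates 1 to 4, 3.86, 4.55, 4.67 and 6.09 in siRNA replicates 1 to 4, and 1.63, 1.72 and 2.41 in wild-type samples. Psmb10 (probe 15389) read 1.43, 1.79, -0.24 and -0.95 in null, 3.35, 3.53, 4.16 and 4.80 in siRNA, and 2.09, 1.68 and 2.63 in wild-type samples. For both genes all siRNA samples were above all wild-type samples, and the null samples split by replicate set. The siRNA changes were 2.39 ± 0.89 for Psmb8 (SE, log2; limma adjusted p = 0.129) and 1.55 ± 0.69 for Psmb10 (limma adjusted p = 0.199). That fit shares its set term among all groups, while the null and siRNA sets differed in opposite directions at both genes. Within replicates 3 and above alone both passed, with 3.58 for Psmb8 (limma adjusted p = 0.000342) and 2.35 for Psmb10 (adjusted p = 0.00941), as did Tap1 probe 11381 with 2.22 (adjusted p = 0.00927). In that fit 9 of the 11 member probes tested were called, against 9.23% of all probes. Its siRNA group is replicates 3 and 4 alone, which may share an array. In the fit of 11 samples with consecutive replicates as a random block, Psmb8, Psmb10 and Tap1 probe 11381 did not pass (limma adjusted p = 0.271, 0.429 and 0.34). Without siRNA replicates 3 and 4 the changes of Psmb8 and Psmb10 were -1.17 and -0.90, resting on the set term alone.

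Psmb9, the subunit encoded beside Tap1, has 3 probes, of which 1 could be tested. Probe 918 read -0.96, -0.95, -2.26 and -2.26 in null replicates 1 to 4, 0.15 and 0.48 in siRNA replicates 1 and 2, and -1.77, -1.25 and -1.34 in the wild-type samples, with a siRNA change of 0.50 ± 0.61 (SE; limma adjusted p = 0.689). That change rests on the set term alone, and it was 1.80 with no set term (limma adjusted p = 0.327). Probe 28890 read 0.78, 0.75, 0.72 and -0.11 in null, 1.77, 1.67, 2.45 and 2.75 in siRNA, and 0.10 in wild-type replicate 6, its only wild-type value. Probe 6518 had values of -2.47 and -1.81 in siRNA replicates 3 and 4, of -4.05 in wild-type replicate 6, and none in null samples. At all 3 probes each siRNA value was higher than each null or wild-type value measured.

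The probes of Psme1, the alpha subunit of PA28, differed from each other. Probe 29340 read 0.21, 0.25, 3.17 and 2.30 in null replicates 1 to 4, 1.47, 1.93, 3.60 and 3.90 in siRNA replicates 1 to 4, and 0.30, -2.25 and 0.97 in wild-type replicates 3, 4 and 6. Its siRNA samples lay above all wild-type samples, which spread widely (SD 1.70). The siRNA change was 4.15 ± 0.69 (SE, log2; 17.7-fold; limma adjusted p = 0.00584; 0.0666 with the random block), and it was lost without siRNA replicate 4 (adjusted p = 0.0528). Probe 23740 read 3.98, 4.18, 4.75 and 4.04 in null, 4.66, 5.05, 4.91 and 5.79 in siRNA, and 4.86, 4.25 and 4.08 in wild-type samples, which overlapped (0.90 ± 0.42 SE, limma adjusted p = 0.219).

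**Figure D1:**
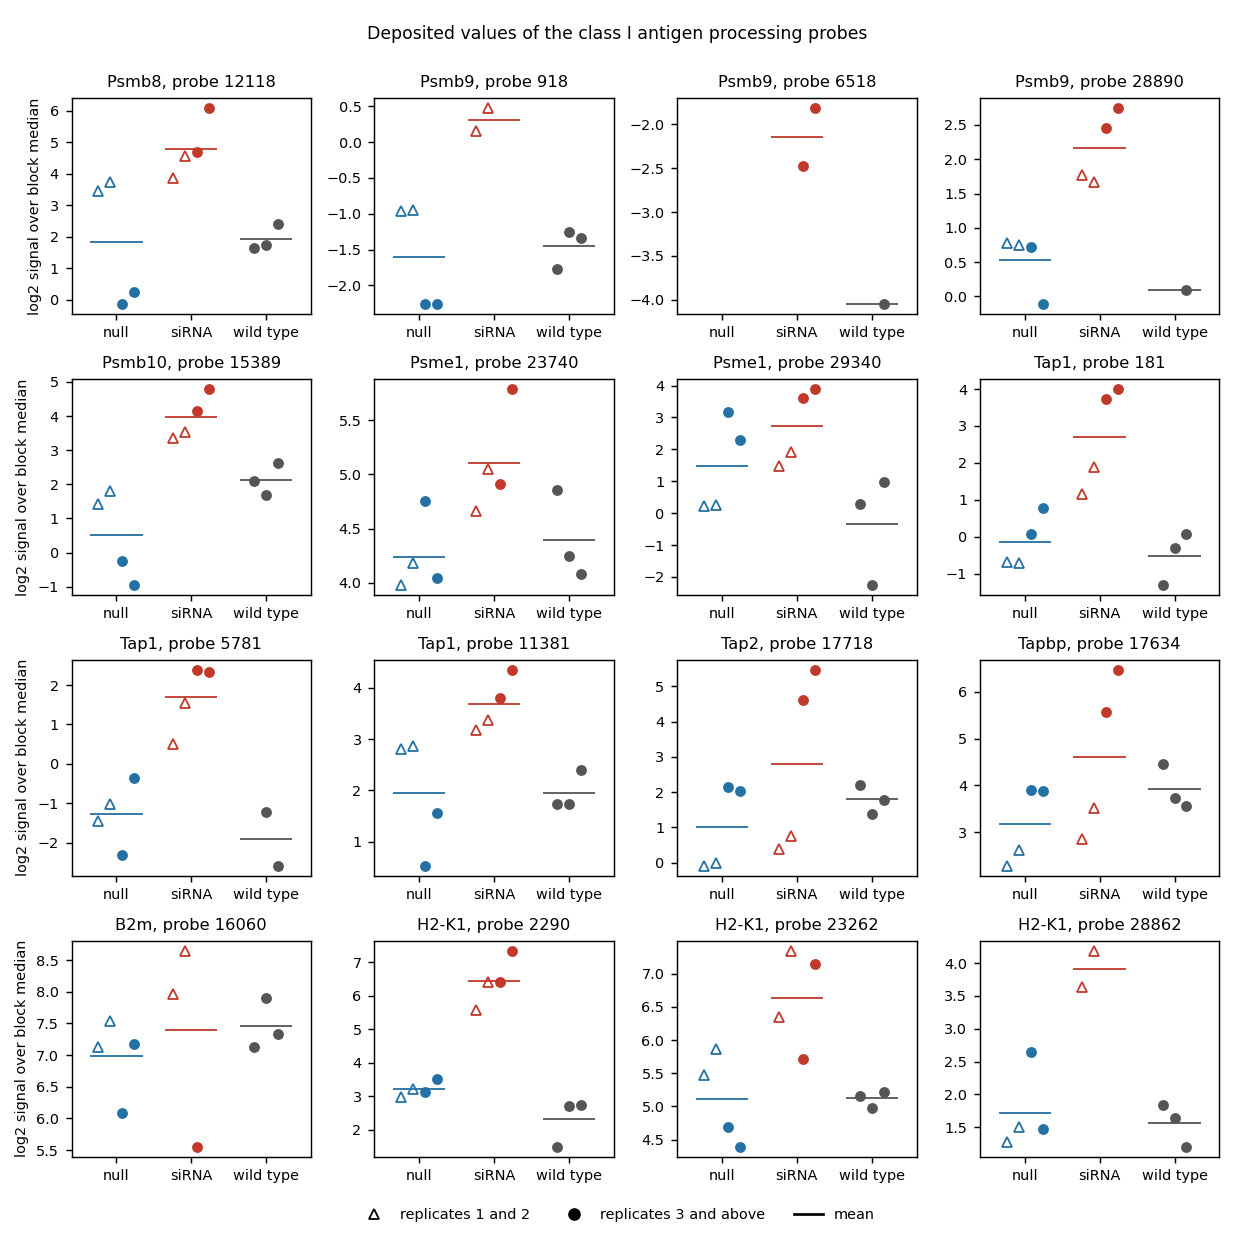
Deposited values (log2 signal over block median, vertical axis) of the 16 probes of the 9 genes in null, siRNA and wild-type samples. Open triangles are replicates 1 and 2, filled circles replicates 3 and above, lines the group means. siRNA samples stand above wild type for H2-K1 probe 2290 (5.58 to 7.35 against 1.48 to 2.74) and overlap it for B2m.

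Counted without a model, all siRNA samples lay above all wild-type samples at 7 of the 10 probes measured in every sample of both groups, against 3.97% of all such probes. None lay wholly below, against 10.8% of all. In RNA of whole cultures, fewer cells of a type and less RNA per cell cannot be told apart.

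Between null and wild-type astrocytes no member passed. Limma called 0 of the 14 probes (4 at an unadjusted p under 0.05), where 0.59% of all probes were called and 17% had an unadjusted p under 0.05. The median change was 0.19, against 0.27 over all probes, with 8 changes positive and 6 negative. Nearest to a call was Psme1 probe 29340 (2.91 ± 0.69 SE, log2; limma adjusted p = 0.0682). It passed with the replicate block (3.59, limma adjusted p = 0.00684, where 1.97% of all probes were called) and within replicates 3 and above (2.97, adjusted p = 0.0295, where 2 members and 4.58% of all probes were called). With consecutive replicates as a random block it did not pass (limma adjusted p = 0.399). H2-K1 probe 2290 had 1.31 ± 0.39 (SE; 95% interval 0.47 to 2.15; limma adjusted p = 0.113) and was the only one of 13 completely measured probes whose null samples all lay above wild type, against 3.71% of all probes. Tap1 probe 181 had 1.35 (adjusted p = 0.143) and Psmb10 -1.90 (adjusted p = 0.185) in the same limma fit. Psmb10 passed within replicates 3 and above (-2.73, limma adjusted p = 0.00772) but not with the random block (0.461). In replicates 3 and above the null group is replicates 3 and 4 alone, which may share an array. The other changes ran from -1.02 for B2m to 1.36 for Tap1 probe 5781.

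Set directly against siRNA astrocytes, null astrocytes were lower in 5 of the 9 genes. Limma called 8 of 14 probes lower and 0 higher, where 2.27% of all probes were called lower and 5.88% in either direction. All 14 changes were negative, with a median of -1.76 against 0.11 over all probes. The largest was that of Psmb10 (-3.45 ± 0.58 SE, log2; limma adjusted p = 0.00712), followed by H2-K1 probe 2290 (-3.24 ± 0.32, adjusted p = 0.000432). Tap1 fell by 2.97 ± 0.47 at probe 5781 (limma adjusted p = 0.00698) and by 2.84 ± 0.36 at probe 181 (adjusted p = 0.00149), and Psmb8 by 2.97 ± 0.75 (adjusted p = 0.0387). H2-K1 probes 28862 and 23262 fell by 2.53 and 1.53 (limma adjusted p = 0.0252 and 0.0333), and Tap2 by 1.79 (adjusted p = 0.0439). The 8 became 5 when wild-type replicate 4, null replicate 2, 3 or 4, or siRNA replicate 3 or 4 was left out. In those fits 1.72% to 4.7% of all probes were called in either direction. This comparison shares its siRNA samples with that against wild type, so the 2 are not independent.

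With the samples paired by replicate number (replicate block), 10 probes were called, adding Tap1 probe 11381 (-1.73, limma adjusted p = 0.0377) and Tapbp (-1.43, adjusted p = 0.0359), while 11.8% of all probes were called. With consecutive replicates as a random block 3 remained: H2-K1 probe 2290 (limma adjusted p = 0.00978), Tap1 probe 181 (0.0217) and Psmb10 (0.0385), where 0.324% of all probes were called lower. These 3 and Tap1 probe 5781 kept their call in every fit with 1 sample left out that tested them. Psmb8 and Tap2 lost it in 6 of 11 such fits, among them each that left out a null or siRNA replicate 3 or 4 (limma adjusted p up to 0.152 and 0.172), H2-K1 probe 23262 in 7 of 11 (up to 0.138), and H2-K1 probe 28862 in 2 of 9, without null replicate 1 or 2 (up to 0.109). Null samples lay wholly below siRNA samples at 7 of 12 completely measured probes, against 3.14% of all.

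**Figure D2:**
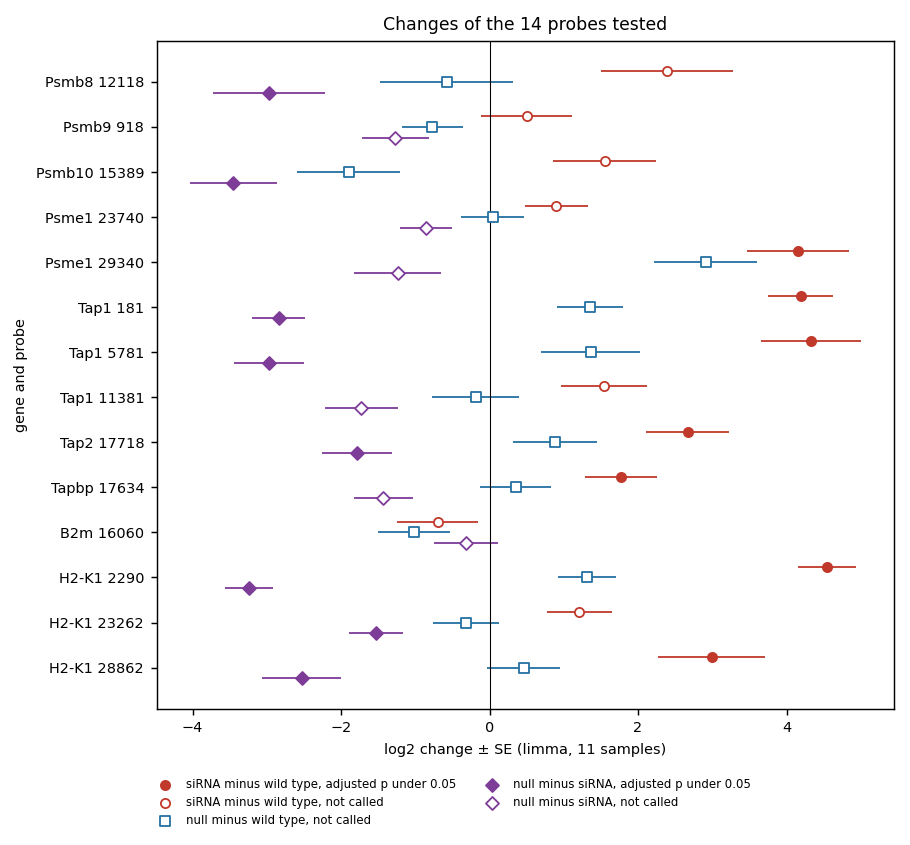
Log2 changes (horizontal axis, ± SE, limma, 11 samples) of the 14 probes tested in the 3 comparisons. Filled symbols have an adjusted p under 0.05. The siRNA changes lie mostly right of 0, the null minus siRNA changes all left of 0, and no null minus wild-type change is filled.

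How far null and siRNA samples differed varied with the replicate set for 4 of the 9 genes. Each group has 1 pair of consecutive replicates per set, and a pair may share an array. The test therefore sets pair against pair, with the spread within pairs as its error, and no random block was fitted for it. The interaction of group and set was called for 4 of 13 probes tested, all with the null samples lower by more in replicates 3 and 4, where 6.19% of all 16587 probes were called in that direction and 18.3% in either. For Psmb8 null minus siRNA was -0.62 in replicates 1 and 2 and -5.32 in replicates 3 and 4 (difference -4.70 ± 0.48 SE, limma adjusted p = 0.00315). For Psmb10 it was -1.83 and -5.08 (difference -3.24 ± 0.51, limma adjusted p = 0.0102), for Tap1 probe 11381 -0.44 and -3.02 (-2.58 ± 0.44, adjusted p = 0.0131), and for Tap2 -0.64 and -2.94 (-2.29 ± 0.44, adjusted p = 0.0178). Psmb8 was the only one to keep this call in all 8 fits with 1 sample left out (limma adjusted p up to 0.0418). The 4 became 1 without null replicate 1 or 2 or siRNA replicate 4, where 1.66%, 1.6% and 3.62% of all probes were called. The count became 2 without siRNA replicate 2 (6.18% of all), 7 without null replicate 4 (35.1%) and 8 without null replicate 3 (38.5%).

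At Psmb8, Psmb10 and Tap1 probe 11381 the null means were higher in replicates 1 and 2 than in 3 and 4 by 3.53, 2.20 and 1.78, while their siRNA means differed by -1.18, -1.04 and -0.80. At Tap2 both groups were lower in replicates 1 and 2, by -2.16 in null and -4.45 in siRNA samples. H2-K1 probe 2290 gave -2.91 and -3.56 in the 2 sets (limma adjusted p of the difference 0.291), and Tap1 probe 181 gave -2.23 and -3.45 (adjusted p = 0.0844). B2m went the other way without passing, with -0.97 in replicates 1 and 2 and 1.07 in replicates 3 and 4 (limma adjusted p = 0.0609). Wild type was used in replicates 3 and above only, so its changes cannot be set against each other by set. There, siRNA minus wild type was 4.58 for H2-K1 probe 2290, 4.39 for Tap1 probe 181, 3.46 for Psmb8, 3.24 for Tap2 and -1.90 for B2m, as differences of means.

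**Figure D3:**
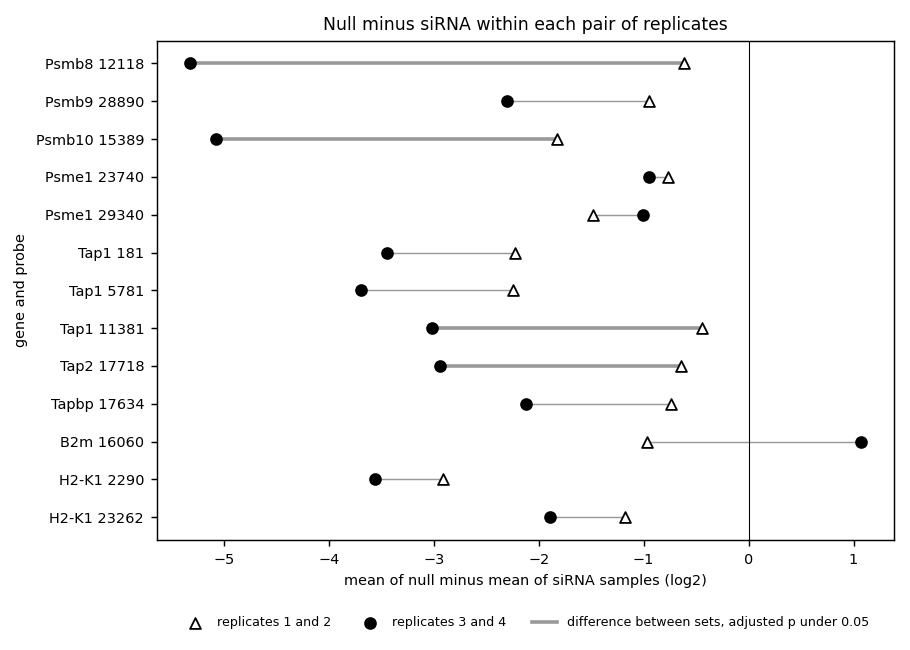
Null minus siRNA (difference of means, log2, horizontal axis) for each probe measured in both replicate sets, in replicates 1 and 2 (open triangles) and 3 and 4 (filled circles). Thick lines mark the 4 probes whose sets differed at an adjusted p under 0.05. Psmb8 shows the widest gap, -0.62 against -5.32.

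Other genes of the pathway were followed through lists. Of the other class I heavy chains, 11 of 20 probes tested (7 of 12 genes) rose in siRNA against wild-type samples and 1 fell, where 5.43% of all probes were called higher and 1.96% lower, and the median change was 1.91. Without siRNA replicate 4 the 11 became 5, without siRNA replicate 3 they became 6, and without wild-type replicate 4 they became 7. The 5 with the smallest p were H2-Q10 at 2 probes (4.93 ± 0.53 SE and 3.91 ± 0.55, limma adjusted p = 0.000585 and 0.00258), H2-T23 (3.38 ± 0.41, adjusted p = 0.0011), H2-D1 (4.21 ± 0.51, adjusted p = 0.0011) and H2-Q8 (5.22 ± 0.60, adjusted p = 0.00165). This H2-Q8 probe (31906) read 0.58, 1.48, 6.46 and 5.60 in siRNA and 1.56, 0.37 and 0.07 in wild-type samples. It had no value in null replicates 1 and 2. Another H2-Q8 probe, 9534, overlapped, with -1.14, -0.80, -1.64 and -1.97 in siRNA and -1.14, -1.53 and -2.07 in wild-type samples. H2-D1, another classical heavy chain gene, read 3.49, 3.70, 2.57 and 2.97 in null, 4.83, 5.66, 6.13 and 6.81 in siRNA and 1.07, 2.36 and 2.18 in wild-type samples at probe 658. All siRNA samples lay above the rest there, and H2-D1 rose at all 3 of its probes tested. The probe that fell was that of Fcgrt, the neonatal Fc receptor, which carries antibody rather than peptide (-1.60 ± 0.43 SE, limma adjusted p = 0.0422; kept in 1 of 11 fits with 1 sample left out). With the random block 6 of the 11 remained. Null was lower than siRNA at 10 of the 20 and higher at 1, where 2.27% of all probes were called lower and 3.61% higher. The smallest p belonged to H2-Q10 (-5.01 and -3.66, limma adjusted p = 0.000311 and 0.00131), H2-Q8 (-5.26, adjusted p = 0.00266), H2-T23 (-2.34, adjusted p = 0.00353) and H2-T3 (-3.07, adjusted p = 0.00397). With the random block 6 of the 10 remained, and Fcgrt, the probe that was higher (2.25, limma adjusted p = 0.00526), did not (0.0766). Between null and wild type 0 of the 20 were called.

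For the other steps of the pathway few probes passed, where 5.43% of all probes were called higher in siRNA against wild-type samples. Of 28 probes (11 genes) for other loading and trimming factors, 1 rose, that of Erap1, the aminopeptidase that trims peptides in the endoplasmic reticulum (2.50 ± 0.55 SE, limma adjusted p = 0.0205; 0.179 with the random block), with a list median of 0.13. Erap1 was also the only one lower in null than in siRNA samples (-2.52, limma adjusted p = 0.0104). The 10 genes of constitutive beta subunits and assembly factors, among them the catalytic subunits that the immunoproteasome replaces, had 0 called and a median of 0.06. The smallest p there belonged to Psmb3 (1.52, limma adjusted p = 0.313) and Psmb1 (-0.62, adjusted p = 0.355). Psme3, the PA28 gamma subunit, which does not serve class I, had -0.70 (limma adjusted p = 0.335).

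Among the regulators of class I genes, 2 of 20 probes (18 genes) rose and 1 fell in siRNA against wild-type samples, with a median of 0.16. Over all probes, 5.43% were called higher and 1.96% lower. Irf7, which drives type I interferon genes, read 0.91, 1.26, -2.05 and -2.21 in null, 3.79, 4.45, 5.08 and 5.34 in siRNA, and -2.03, -1.80 and -0.19 in wild-type samples. It rose by 5.56 ± 0.87 (SE, log2; limma adjusted p = 0.00426; 0.0173 with the random block), and null lay below siRNA by -5.19 (adjusted p = 0.00281). Socs1, which dampens interferon signalling, rose by 2.78 ± 0.74 (limma adjusted p = 0.048; 0.287 with the random block), and Irf8, a factor of myeloid cells, fell by 2.72 ± 0.61 (adjusted p = 0.0216; 0.117 with the random block). MHC class II genes, which show peptides to helper T cells, had values enough for 4 of 13 probes, and 0 were called. Their smallest p belonged to H2-Ab1 (0.64, limma adjusted p = 0.491) and H2-DMa (-0.56, adjusted p = 0.52).

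Microglia, which can also make class I molecules, were followed by their markers. Of 19 microglia and myeloid marker probes (16 genes), 8 fell in siRNA against wild-type samples and 0 rose (median -1.77), where 1.96% of all probes were called lower. Those with the smallest p were Laptm5 (-3.38), C1qa (-2.43), Coro1a (-2.95), Ly86 (-4.14) and Aif1 (-2.90), with limma adjusted p from 0.000636 to 0.0135. With the random block 2 of the 8 remained, and the count became 4 without wild-type replicate 3 and 5 without wild-type replicate 4 or siRNA replicate 3. Null was higher than siRNA at 7 of the 19, where 3.61% of all probes were called higher. That count was 1 with the random block, 3 without null replicate 4 or siRNA replicate 3, and 4 without null replicate 2 or siRNA replicate 1. Between null and wild type 0 were called. The mean over 16 completely measured marker probes ran from 1.95 to 4.18 in null, 1.44 to 1.91 in siRNA and 2.58 to 3.51 in wild-type samples.

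Markers of other cells were followed in the same way. Of 7 fibroblast and mural probes tested, 2 fell in siRNA against wild-type samples, where 1.96% of all probes were called lower. They were the collagen gene Col3a1 (-4.65 ± 1.01 SE, limma adjusted p = 0.0276) and the proteoglycan gene Dcn (-4.48 ± 0.99, adjusted p = 0.0295), with a list median of -1.67. Neither passed with the random block (0.182 and 0.129), and 0 of the list were called in the 6 fits that left out replicate 3 or 4 of any group. Without null or siRNA replicate 3 or 4, however, neither probe could be tested, because fewer than 2 values remained in that group. Both kept the call in 5 of the 7 fits that tested them and lost it without wild-type replicate 3 or 4. The mean over 3 completely measured probes of that list ran from -1.84 to 1.21 in null, -1.63 to -0.07 in siRNA and 0.74 to 3.08 in wild-type samples. Of 8 probes for T and natural killer cell markers 3 could be tested, and 0 were called in siRNA against wild type (median 0.36), with Cd3e at 0.44 and Gzmb at 0.36 (limma adjusted p = 0.633 and 0.809). Klrb1c, a natural killer cell receptor gene, was higher in null than in siRNA samples (2.14, limma adjusted p = 0.0141; 0.109 with the random block) and stood at 2.02 between null and wild type (adjusted p = 0.0733). The mean level of those 3 probes ran from -0.41 to 0.80 in null, -0.98 to -0.40 in siRNA and -1.70 to 0.15 in wild-type samples. Of 17 astrocyte probes tested, Gja1 among them, 2 fell and 1 rose in siRNA against wild-type samples, with 8 changes positive and 9 negative by sign. Over all probes, 1.96% were called lower and 5.43% higher. Aldoc fell by 2.34, Glul probe 30681 by 1.73, and Aldh1l1 rose by 1.82 (limma adjusted p = 0.0304, 0.0328 and 0.0374). None of these 3 passed with the random block (0.164, 0.222 and 0.22), and they kept the call in 6, 5 and 3 of 11 fits with 1 sample left out. Null was higher than siRNA at 3 of the 17 (Aldoc, Glul probe 30681 and Sox9) and lower at Gja1. Over all probes, 3.61% were called higher there and 2.27% lower. Aldoc had 3.30 (limma adjusted p = 0.00341) and alone stayed called with the random block (0.0336). Of 8 oligodendrocyte lineage probes tested, 0 were called against wild type in either group. Sox10 alone was higher in null than in siRNA samples (1.66, limma adjusted p = 0.0129), but not with the random block (0.155). The part of these shifts in the class I changes was not tested.

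**Figure D4:**
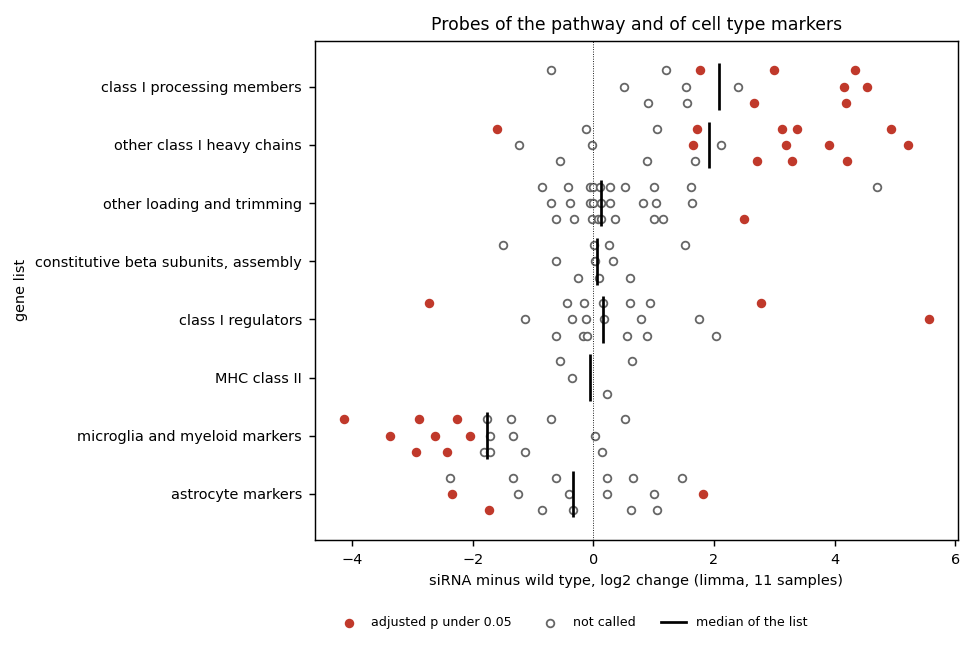
siRNA minus wild-type log2 changes (horizontal axis, limma, 11 samples) of each probe tested, by gene list. Filled points have an adjusted p under 0.05, and vertical bars are list medians. The members and the other heavy chains have medians of 2.08 and 1.91, the constitutive beta subunits 0.06 and the microglia markers -1.77.

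The mean profile of the members, taken over 1 probe per gene and each probe centred on its mean, ran from -1.01 to -0.57 in null, 0.38 to 2.79 in siRNA and -0.64 to -0.36 in wild-type samples. After dye and replicate set were removed, the 8 most like it, of 9295 probes of other genes that had 1 gene symbol and a value in all 11 samples, were H2-Q10 (r = 0.988), the kinase gene Cmpk2 (0.983), the pentraxin gene Ptx3 (0.982), the GTPase gene Tgtp1 (0.98), H2-T3 (0.98), the GTPase genes Gbp2 (0.979) and Ifi47 (0.978), and H2-D1 (0.978). Their siRNA minus wild-type changes were 2.72 to 5.43, all called by limma. The points share groups and may share arrays, and these probes were picked as the highest of many, so the values are a description. Tgtp1 changed most, by 5.43 against wild type (limma adjusted p = 0.00119), with -0.17 between null and wild type (adjusted p = 0.932).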

How the data were processed

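RNA from cultured astrocytes was measured on spotted oligonucleotide arrays, 1 sample per dye. The deposited columns hold log2 values that the authors made. No label describes background treatment or scanner settings. In all 14 columns each of 48 blocks of 700 probes has a median of about 0. For 100% of the values checked (tolerance 0.01), 2 to the power of a value times its block's median signal is a whole number. High signals were left out of that check. The deposited log2 values were therefore taken as signal over block median, without further normalization between samples.

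Of 33600 probes, 18179 have 1 gene symbol in the platform annotation, 87 several and 15334 none. Wild-type replicate 5 holds signals of 17 to 128 only. In wild-type replicates 1 and 2 most block columns fit the others after a shift of rows, and both were used only in alternatives. The precision is limited by the number of arrays. Limma 3.58.1 (R 4.3.3) was fitted to 11 samples with group, dye and replicate set (replicates 1 and 2, or 3 and above), for probes with at least 2 values a group. Benjamini-Hochberg adjustment ran over 20342 probes, with a threshold of 0.05. The interaction of group and set was fitted to the 8 null and siRNA samples and probes with at least 3 values a group. Tables were handled in Python 3.11.15 with pandas 2.3.3 and numpy 2.4.6. The code was tested on simulated data.

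Null and siRNA samples of 1 number deviated together (r = 0.605, 0.619, 0.563 and 0.51 for replicates 1 to 4). Pairing by number was therefore fitted as an alternative, while the main fit held dye and set without pairing. Different numbers within a replicate set correlated at 0.269 to 0.59, so most of this correlation is shared by the set. No label says what a number shares. Alternatives were a replicate block, consecutive replicates as a random block, no set term, other scalings, other sample sets and each sample left out.

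All member probes are named. For the other lists the rule allowed up to 5 called probes per comparison, by smallest p, or up to 2 where none was called, and the text names some of those it allowed. Fcgrt was named after its values were seen, as the only heavy chain list probe that fell. The 8 probes most like the members' mean profile are named too. The members and lists were chosen with earlier results of these data known.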

Additional observations from a re-analysis of the deposited data

Results flagged for a closer look

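For 4 probes the difference between null and siRNA samples was not the same in replicates 3 and 4 as in replicates 1 and 2, by the interaction term of limma over the 8 samples. The difference of differences (log2) was -4.70 for Psmb8, -3.24 for Psmb10, -2.58 for Tap1 probe 11381 and -2.29 for Tap2. The sets also differ over all probes, with 18.3% called, and no label says what separates the sets. Each group has 1 pair of consecutive replicates per set, so the error of this term is the spread within pairs.

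For Psmb9 probe 28890, null replicate 4 read -0.11, apart from the other null samples at 0.72 to 0.78. The gap was 0.927 of the group's range, above the 95% critical value of Dixon's test for 4 samples. Of 27 groups tested this way, chance alone flags about 1 in 20.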

How the results depend on the processing

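Of 913 member values under alternatives, 768 kept direction and side of the threshold, 81 fell below it, 32 passed it newly and 32 changed sign. None of those that changed sign had been called, and their cause was not tested. For siRNA against wild type, B2m was 0.27 with no set term, 0.32 with all 14 samples as deposited, 0.32 with wild-type replicates 1 and 2 realigned and -1.05 to 0.26 with 1 sample left out. Without siRNA replicates 3 and 4, added after seeing the data, B2m was 0.26, Tap1 probe 11381 -0.40, Psmb8 -1.17 and Psmb10 -0.90. These values rest on the set term alone. For null against wild type with no set term, Tap1 probe 11381 was 0.06, Psmb8 0.01, Tapbp -0.72, Tap2 -0.77, H2-K1 probe 23262 0.06 and Psme1 probe 23740 -0.16. With replicates 3 and above only, Tapbp was -0.04 and Psme1 probe 23740 -0.04. With all 14 samples Tap1 probe 11381 was 0.81 and Psme1 probe 23740 -0.16, and Psme1 probe 23740 was -0.11 with the replicate block. With 1 sample left out, Tap1 probe 11381 ran from -0.40 to 0.42, Psmb8 from -1.04 to 0.41, H2-K1 probe 23262 from -0.52 to 0.10, H2-K1 probe 28862 from -0.10 to 1.12 and Psme1 probe 23740 from -0.15 to 0.37. For null against siRNA, B2m was 0.24 with spread scaling. The 7 members called for siRNA against wild type became 1 with no set term, 3 with the random block, 3 without siRNA replicates 3 and 4, and 3 to 7 with 1 sample left out. The 0 for null against wild type became 1 with the replicate block, 2 with replicates 3 and above, and 0 to 1 with 1 sample left out. The 8 for null against siRNA became 1, 3, 3, 5 and 14 with no set term, the random block, all 14 samples, spread scaling and replicates 1 and 2 only, and 5 to 9 with 1 sample left out. With replicates 1 and 2 only, 49.2% of all probes were called. The 4 set differences became 8 with each column centred on its own median, also added later, where 34.2% of all probes were called. They became 1 to 8 with 1 sample left out, where 1.6% to 38.5% of all probes were called.

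Over all probes, the 1502 called for siRNA against wild type became 66 with no set term, 204 with the random block, 779 with all 14 samples, 963 with the realigned columns, 571 with spread scaling, 566 without siRNA replicates 3 and 4, and 225 to 1589 with 1 sample left out. The 120 for null against wild type ran from 0 with no set term to 877 with replicates 3 and above, and was 399 with the replicate block. The 1196 for null against siRNA ran from 75 with no set term to 8004 with replicates 1 and 2 only, and was 2401 with the replicate block. The 3029 set differences became 5677 with columns centred. Of the siRNA against wild-type calls 73.5% were higher, against 56% with all 14 samples, 58.7% with the realigned columns and 54.8% without siRNA replicates 3 and 4. Of the null against siRNA calls 61.5% were higher, against 36% with no set term, 37.7% with the random block, 51.2% with all 14 samples and 42.1% with replicates 1 and 2 only.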
